A study of Homo sapiens with 4 samples.

Results

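Notch receptors, ligands, targets and a coactivator, 10 genes in all, were followed across 4 RNA-seq libraries of the cell line MDA-MB-231, established from a human triple-negative breast cancer, by taking the rows of the deposited count table whose gene name was NOTCH1, NOTCH2, NOTCH3, JAG1, JAG2, HES1, HES4, HEY1, NRARP or MAML2. They are 10 of the 58735 genes of that table, and all 10 were kept among the 14585 genes with a mean CPM (read counts scaled to library size) of at least 1 over the libraries. All 4 libraries came from cells that carried the TetOn-H2BeGFP transgene, a doxycycline-inducible histone H2B reporter. They had been given 5 µg/ml doxycycline for 3 days, had taken up Claret and Violet dyes and were then chased for 12 days. The Claret, eGFP and Violet libraries came from the 1% of cells that kept most of that label, and such cells are called slow-cycling because each division dilutes the label. The Bulk library came from cells sorted with no fluorescence gate. Whether the transduced line was a single clone is not given in the sources used here. Each population gave 1 library, so no difference below has a replicate check, and intervals cover counting error only. Libraries are named by their titles. The treatment label disagrees with the title in all 4 samples, and it would make the library titled Violet the ungated one.

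Notch receptors are single-pass membrane proteins that are cut when a ligand on a neighbouring cell pulls on them. The last cut, by gamma-secretase, frees the intracellular part of the receptor, which enters the nucleus and joins the DNA-binding protein RBPJ (also called CSL) and a Mastermind coactivator. The genes switched on by this complex include those of the HES and HEY repressors, and NRARP, whose product limits the pathway. In breast tissue the pathway is known for its part in luminal cell fate, and in breast cancer JAG1 and the receptors have been studied in relation to tumour growth and stem-like cells. Messenger RNA levels of receptors and ligands do not measure how much receptor is cut.

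Summed reads per library ranged from 15508179 to 16976909, and 0 reads would allow a level of up to 0.177 to 0.190 CPM (3 reads). MKI67, a proliferation marker, had 6778 reads from Bulk against 995, 689 and 915 from Claret, eGFP and Violet. Of the markers of the line, VIM, CD44, SPARC and AXL had 516 to 18488 reads in every library. ESR1 had 3 to 7 reads, PGR 0 and CDH1 0 to 3, whereas ERBB2 had 1415 to 1542 reads. Of markers of other cell types, PTPRC, CDH5 and ALB had 0 to 6 reads in any library and PECAM1 had 54 to 87. The part of these markers in the results was not tested.

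The promoters of the target genes are shown first, because the targets are the genes at which Notch signalling is read out. RefSeq sequences (GRCh38.p14) were looked up for 24 receptor, ligand, coactivator and target-family genes, of which 20 matched, 9 of the 10 followed genes among them. HEY1, DLL1, DLL3 and DLK1 had no match. The core of the RBPJ binding site, TGGGAA, was searched on both strands of the 250 bases before each gene's start. It was present in 20.8% of the 35116 promoters of that length. Among the 9 followed genes it was found in HES1, with matches starting 84 and 70 bases before the start, and in HES4, with a match starting 76 bases before it. NRARP, JAG2, JAG1, MAML2 and the receptors NOTCH1, NOTCH2 and NOTCH3 had no match in this window. The 190 bases from 250 to 61 bases before the start are printed for HES1 (chr3:194135898-194136087, plus strand), HES4 (chr1:1000158-1000347, minus strand) and, as a target with no match, NRARP (chr9:137302332-137302521, minus strand). They run 5′ to 3′ on the gene's strand, with the RBPJ core in capitals. Starts here are those of RefSeq. In the gene coordinates used below, HES4 begins further upstream, at 1000172 on the minus strand. The last 15 printed bases of HES4 therefore lie inside an exon of that annotation, and they hold its core match except the opening T. The printed bases of HES1 and NRARP lie outside such exons.
HES1: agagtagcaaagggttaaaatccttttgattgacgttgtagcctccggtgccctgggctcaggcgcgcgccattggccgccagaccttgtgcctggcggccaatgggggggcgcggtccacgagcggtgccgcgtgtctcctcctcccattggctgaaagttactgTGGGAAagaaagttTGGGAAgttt
HES4: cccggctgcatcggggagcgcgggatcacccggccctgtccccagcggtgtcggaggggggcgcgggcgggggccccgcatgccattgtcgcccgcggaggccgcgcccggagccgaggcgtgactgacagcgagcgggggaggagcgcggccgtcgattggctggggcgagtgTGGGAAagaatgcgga
NRARP: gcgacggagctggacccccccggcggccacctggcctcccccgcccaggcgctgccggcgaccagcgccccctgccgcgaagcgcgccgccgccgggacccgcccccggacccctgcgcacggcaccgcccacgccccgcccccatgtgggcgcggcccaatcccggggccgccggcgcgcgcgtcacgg
The longest run that HES1 and HES4 shared in these windows, tgTGGGAAagaa, was 12 bases long and held the core. The AP-1 site TGANTCA, searched because the series title names AP-1, was found in 6.57% of all promoters and in none of the 9 followed genes. The N-box CACNAG, a site that HES repressors bind, was found in 32.0% of all promoters. HES1 held 3 N-boxes, MAML2 held 2 and NOTCH3 held 1. A match describes letters and does not show that a factor is bound there.

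The question put to the data was whether receptors, ligands and targets differed from Bulk in the same way in slow-cycling cells. The 10 genes differed among themselves. HEY1 was about 4-fold higher than Bulk in all 3 slow-cycling libraries, the ligand JAG2 was 1.79-fold to 2.42-fold higher, and the weakly expressed receptor NOTCH3 was 1.76-fold to 2.58-fold lower. The abundant receptors NOTCH1 and NOTCH2 and the targets HES1 and NRARP had log2 ratios from -0.25 to 0.11 in all 3 libraries. A gene was called past 2-fold when its log2 ratio reached 1 or -1. By that rule the Claret library had 1 of the 10 genes higher, eGFP had 2 and Violet 1, against 11.3%, 12% and 11.4% of all genes kept. Lower by the same rule were 0, 1 and 0 genes, against 6.68%, 7.63% and 7.02%. In all 3 libraries at once 1 gene, HEY1, was higher and 0 were lower, against 8.6% and 4.92% of genes kept. With 10 genes, these counts are near the background shares. The 95% interval against Bulk lay above 0 for 4, 6 and 5 of the 10 genes and below 0 for 4, 2 and 1. Among all genes kept it excluded 0 for 70.3% (Claret), 71.3% (eGFP) and 71% (Violet), so an interval that excludes 0 is common. The 10 genes had a median log2 ratio of 0.04 (Claret), 0.13 (eGFP) and 0.13 (Violet), against -0.01, -0.01 and 0.00 over all genes kept. In these sorted populations, fewer cells with an RNA and less of it per cell cannot be told apart.

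Levels per length, as the FPKM (fragments scaled to gene length and library size) that the authors deposited, spanned more than 2 orders of magnitude on the plot of levels by library. In Bulk the order was HES1 (22.0 FPKM), JAG1 (19.1), NOTCH2 (18.1), HES4 (13.9), NOTCH1 (11.2), MAML2 (3.76), NRARP (2.44), JAG2 (1.04), HEY1 (0.418) and NOTCH3 (0.267). In the slow-cycling libraries JAG1 stood first, with 21.4 to 24.6 FPKM, and HES1 second. NOTCH3 was last in all 4 libraries. The other change of order was in eGFP, where JAG2 (2.48 FPKM) stood above NRARP (2.33 FPKM), a difference that rests on 254 and 66 reads. HEY1 was ninth in every library, although its level in Claret (1.80 FPKM) came close to that of JAG2 (1.84 FPKM).

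**Figure D1:**
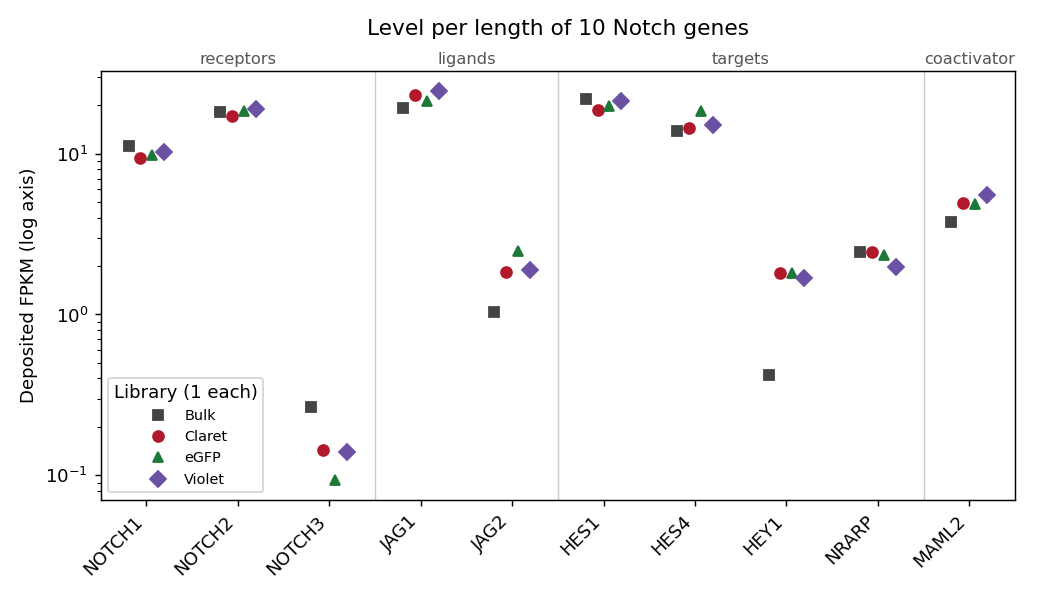
Deposited FPKM of the 10 Notch genes (log axis) in the 4 libraries, 1 point per library, with no error bars because each group has 1 library. HEY1 and JAG2 in Bulk (0.418 and 1.04 FPKM) lie below their 3 slow-cycling points, NOTCH3 in Bulk (0.267 FPKM) lies above them, and the 4 points of NOTCH2, HES1 and NRARP lie close together.

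Among the receptors, NOTCH2 (ENSG00000134250, chromosome 1, 119911553 to 120069626) had 4716 reads from Bulk, 4860 from Claret, 4954 from eGFP and 5105 from Violet. Its log2 ratios to Bulk were -0.06 (95% interval -0.12 to -0.00), 0.06 (0.00 to 0.12) and 0.11 (0.05 to 0.17). With other scalings, another prior count or a GC correction they ran from -0.09 to -0.04, 0.03 to 0.09 and 0.05 to 0.16. The interval ends nearest 0, -0.0047 in Claret and 0.0025 in eGFP, are smaller than such shifts. Whether NOTCH2 in Claret and eGFP differed from Bulk thus depends on the scaling. NOTCH1 (ENSG00000148400, chromosome 9, 136494433 to 136545786) had 1802 reads from Bulk against 1647, 1630 and 1706 from Claret, eGFP and Violet. Its log2 ratios were -0.24 (-0.33 to -0.14), -0.16 (-0.25 to -0.06) and -0.08 (-0.18 to 0.01), all on the lower side. NOTCH1 transcripts have a GC content of 65.6%, and values centred on genes of similar GC content were -0.45, -0.39 and -0.29. NOTCH3 (ENSG00000074181, chromosome 19, 15159038 to 15200981) had 39 reads from Bulk, 23 from Claret, 14 from eGFP and 21 from Violet. Its log2 ratio was -0.81 in Claret (-1.68 to -0.09), -1.37 in eGFP (-2.48 to -0.58) and -0.84 in Violet (-1.74 to -0.10). Bulk was the highest library for NOTCH3 and eGFP the lowest, and at 14 to 39 reads the size of the difference is poorly fixed. NOTCH2 made up 61.2% of the summed FPKM of the 3 receptors in Bulk, 64.2% in Claret, 65.0% for eGFP and 64.6% for Violet. NOTCH3 made up 0.906% in Bulk, 0.544% in Claret, 0.329% for eGFP and 0.475% for Violet, and NOTCH1 the rest. Summed receptor FPKM was 29.5 in Bulk and 26.5, 28.4 and 29.3 in the slow-cycling libraries.

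The count of NOTCH2 has a limit of its own, because the NOTCH2NL genes are partial copies of it. Of the 31-base stretches of NOTCH2 transcripts, 26.4% also occurred in other annotated genes, led by NBPF19 and NOTCH2NLA. NOTCH2NLA had 10 reads from Bulk against 12, 13 and 18 from Claret, eGFP and Violet. Reads from the shared stretches may have been dropped or split, since the handling of such reads is not given in the sources used here. Shared stretches made up 9.22% for MAML2, 6.85% for JAG2 and at most 1.68% for the other 7 genes. Genes that overlap a followed gene had 0 to 9 reads in any library.

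Both ligands were on the higher side in every slow-cycling library. JAG1 (ENSG00000101384, chromosome 20, 10637684 to 10673999) is a transmembrane ligand of the Serrate/Jagged family and had 2759 reads from Bulk, 3637 from Claret, 3180 from eGFP and 3678 from Violet. Its log2 ratios were 0.29 (0.22 to 0.36), 0.19 (0.12 to 0.27) and 0.41 (0.34 to 0.48), and thus its intervals lay above 0 but far from 2-fold. JAG2 (ENSG00000184916, chromosome 14, 105140981 to 105168824), its close relative, had 103 reads from Bulk, 200 from Claret, 254 from eGFP and 194 from Violet. The log2 ratio of JAG2 was 0.84 in Claret (0.50 to 1.21), 1.28 in eGFP (0.96 to 1.64) and 0.90 in Violet (0.56 to 1.27), and eGFP was the library past 2-fold. JAG2 made up 5.15% of the summed FPKM of both ligands in Bulk, against 7.40% (Claret), 10.4% (eGFP) and 7.12% (Violet). The transcripts of JAG2 have a GC content of 64.0%, within the highest of 10 equal groups of genes kept by GC content (61.9% or more). In that group 20.6%, 22.3% and 20.3% of genes were past 2-fold higher. With each ratio centred on genes of similar GC content, JAG2 stood at 0.62, 1.04 and 0.69.

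The 4 targets differed among themselves. HEY1 (ENSG00000164683, chromosome 8, 79764010 to 79767863), a basic helix-loop-helix repressor, had 21 reads from Bulk, 99 from Claret, 94 from eGFP and 87 from Violet. Bulk was the low library, and the 3 slow-cycling libraries lay close together. The log2 ratios of HEY1 were 2.03 (1.44 to 2.88), 2.05 (1.46 to 2.91) and 1.95 (1.35 to 2.81), which are 4.09-fold, 4.15-fold and 3.87-fold, and all 3 intervals lay beyond 2-fold. These values placed HEY1 at the 97.5th, 97.3rd and 97.0th percentile of all genes kept. Among genes with a mean of 1 to 10 CPM, as HEY1 has, 16.9% were past 2-fold higher in all 3 libraries. By the treatment label the HEY1 values would be -1.95, 0.08 and 0.10, because the 1 low library would then be the Claret one. The library titled Bulk is the one with the most MKI67 reads. On the scale log2(FPKM + 1), which compresses low levels, HEY1 stood at 0.98, 0.99 and 0.92.

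HES1 (ENSG00000114315, chromosome 3, 194136145 to 194138732), the repressor most widely used as a readout of Notch signalling, had 704 reads from Bulk, 650 from Claret, 650 from eGFP and 701 from Violet. Its log2 ratios were -0.22 (-0.38 to -0.07), -0.13 (-0.28 to 0.03) and -0.01 (-0.16 to 0.14), with Violet level with Bulk. HES4 (ENSG00000188290, chromosome 1, 998962 to 1000172), a relative of HES1, had 242 reads from Bulk, 274 from Claret, 327 from eGFP and 269 from Violet. Its log2 ratios were 0.07 (-0.18 to 0.33), 0.42 (0.18 to 0.67) and 0.15 (-0.11 to 0.41), and eGFP was the highest library. HES4 transcripts have a GC content of 74.2%, and after centring on genes of similar GC content the values were -0.14, 0.19 and -0.06. NRARP (ENSG00000198435, chromosome 9, 137300482 to 137302251), an ankyrin-repeat protein that binds the Notch complex and limits it, had 67 reads from Bulk against 73, 66 and 56 from Claret, eGFP and Violet. Its log2 ratios were 0.02 (-0.48 to 0.52), -0.03 (-0.55 to 0.48) and -0.25 (-0.80 to 0.27), so a difference from Bulk was not detectable at this depth. Centred on GC content (67.3%), the NRARP values were -0.20, -0.27 and -0.46.

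MAML2 (ENSG00000184384, chromosome 11, 95976598 to 96343180), a Mastermind coactivator, had 415 reads from Bulk, 598 from Claret, 550 from eGFP and 631 from Violet. Its log2 ratios of 0.42 (0.24 to 0.61), 0.39 (0.21 to 0.58) and 0.60 (0.42 to 0.78) were all above 0 and under 2-fold. Among all genes kept these values stood at percentiles 72.8, 71.1 and 78.3. MAML1, the better-expressed paralog, had 2353 reads from Bulk against 1430, 1446 and 1652 from Claret, eGFP and Violet, with log2 ratios of -0.82, -0.71 and -0.51. MAML3 had 221 reads from Bulk against 225 to 263 from the others. In FPKM, MAML1 was 6.78 times MAML2 in Bulk, against 2.86 (Claret), 3.15 (eGFP) and 3.13 (Violet) times.

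**Figure D2:**
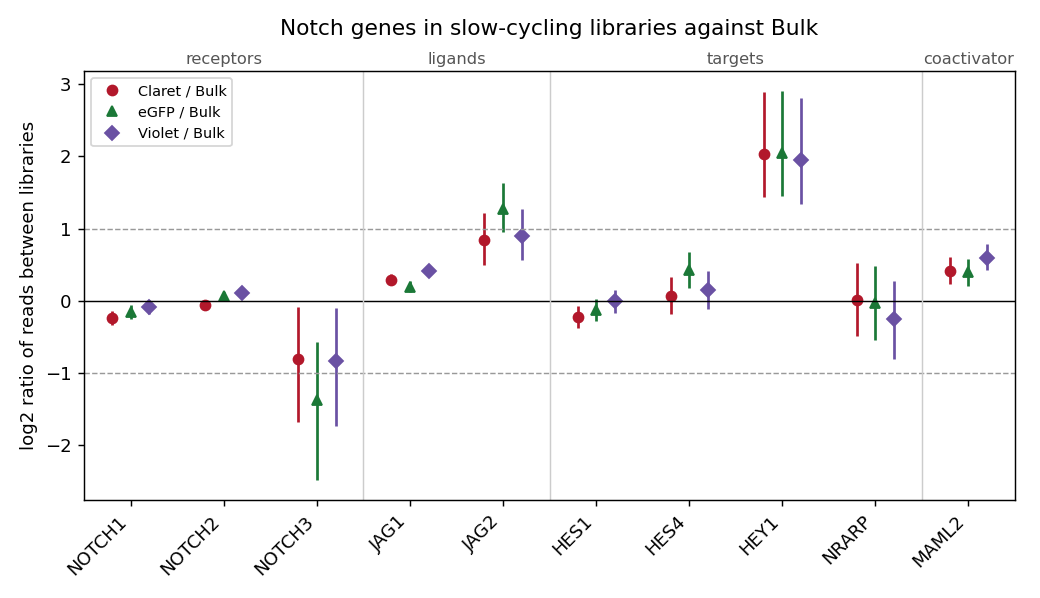
Log2 ratio of each slow-cycling library to Bulk for the 10 Notch genes. Points are ratios with a prior count of 2, lines are 95% exact intervals of the ratio of reads (counting error only), and dashed lines mark 2-fold. HEY1 lies wholly above the upper dashed line, from 1.95 to 2.05, JAG2 lies around it and NOTCH3 around the lower one.

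Ratios between genes of the same library do not depend on how libraries are scaled to each other. They still carry any trend with GC content, for which they were not corrected. GC content differs within pairs, as for JAG2 (64.0%) and JAG1 (49.8%), HES4 (74.2%) and HES1 (50.9%), and NOTCH1 (65.6%) and NOTCH2 (48.5%). The pairs were chosen after the values of single genes had been seen, so these ratios describe the same reads in another form. Relative to JAG1, JAG2 was 1.47 times its Bulk value in Claret (1.15 to 1.90), 2.14 times in eGFP (1.68 to 2.73) and 1.41 times in Violet (1.10 to 1.82). HEY1 relative to HES1 was 5.11 times its Bulk value in Claret (3.12 to 8.71), 4.85 times in eGFP (2.95 to 8.29) and 4.16 times in Violet (2.52 to 7.13). The level of HES1 was 52.5 times that of HEY1 in Bulk, against 10.3 (Claret), 10.8 (eGFP) and 12.6 (Violet) times, in FPKM. HES4 relative to HES1 was 1.46 times its Bulk value in eGFP (1.20 to 1.79), and in Claret (1.23, 0.996 to 1.51) and Violet (1.12, 0.907 to 1.37) the interval included 1. NRARP relative to HES1 stood at 1.18, 1.07 and 0.839 with all 3 intervals including 1. NOTCH3 relative to NOTCH2 stood at 0.572 (0.326 to 0.984), 0.342 (0.171 to 0.644) and 0.497 (0.278 to 0.868), and NOTCH1 relative to NOTCH2 at 0.887, 0.861 and 0.875.

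**Figure D3:**
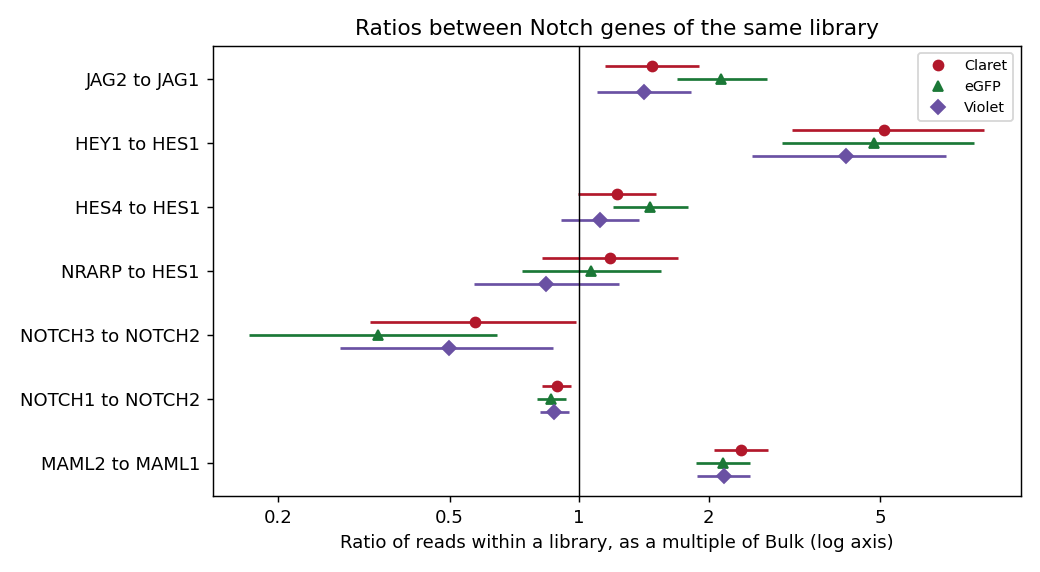
Ratio of the reads of 2 genes within each slow-cycling library, as a multiple of the same ratio in Bulk (log axis), with 95% exact intervals for counting error. HEY1 relative to HES1 lies from 4.16 to 5.11, JAG2 relative to JAG1 from 1.41 to 2.14, MAML2 relative to MAML1 from 2.16 to 2.37, and NOTCH3 relative to NOTCH2 from 0.342 to 0.572.

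The 3 slow-cycling libraries were then set against each other, since the series title speaks of heterogeneous dormancy. None of the 10 genes was past 2-fold for Claret against eGFP, Claret against Violet or eGFP against Violet, where 1.15%, 1.06% and 1.29% of all genes kept were. The 95% interval excluded 0 for 4, 5 and 4 of the 10 genes, against 24.5%, 28.3% and 28.5% of genes kept. Genes with more reads have narrower intervals, and 10 genes are too few to be set against these shares. JAG2 in eGFP lay above both dye-retaining libraries, with a log2 ratio of -0.44 for Claret against eGFP (-0.71 to -0.17) and 0.38 for eGFP against Violet (0.11 to 0.66). HES4 showed the same order, at -0.35 (-0.59 to -0.11) and 0.27 (0.04 to 0.51). JAG1 had the opposite order, with eGFP the lowest of the 3, at 0.10 for Claret against eGFP (0.03 to 0.17) and -0.22 for eGFP against Violet (-0.29 to -0.15). NOTCH2 was lower in Claret (287 CPM) than in eGFP (312) and Violet (323), and NOTCH1 was lower in Claret (97.1 CPM) than in Violet (108), with intervals that excluded 0. For Claret against Violet, HES1 was also lower, at -0.21 (-0.37 to -0.06), as was JAG1, at -0.12 (-0.19 to -0.05). The other intervals of HES1 between these libraries included 0. For eGFP against Violet the intervals of NOTCH1 (-0.17 to 0.03) and NOTCH2 (-0.11 to 0.01) included 0. MAML2 was higher in Violet (39.9 CPM) than in Claret (35.3) and eGFP (34.7), with intervals that excluded 0. HEY1 was 5.84, 5.92 and 5.51 CPM in Claret, eGFP and Violet, and its 3 intervals between these libraries included 0 and lay between -0.44 and 0.54. NOTCH3 and NRARP had intervals too wide to order the libraries.

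**Figure D4:**
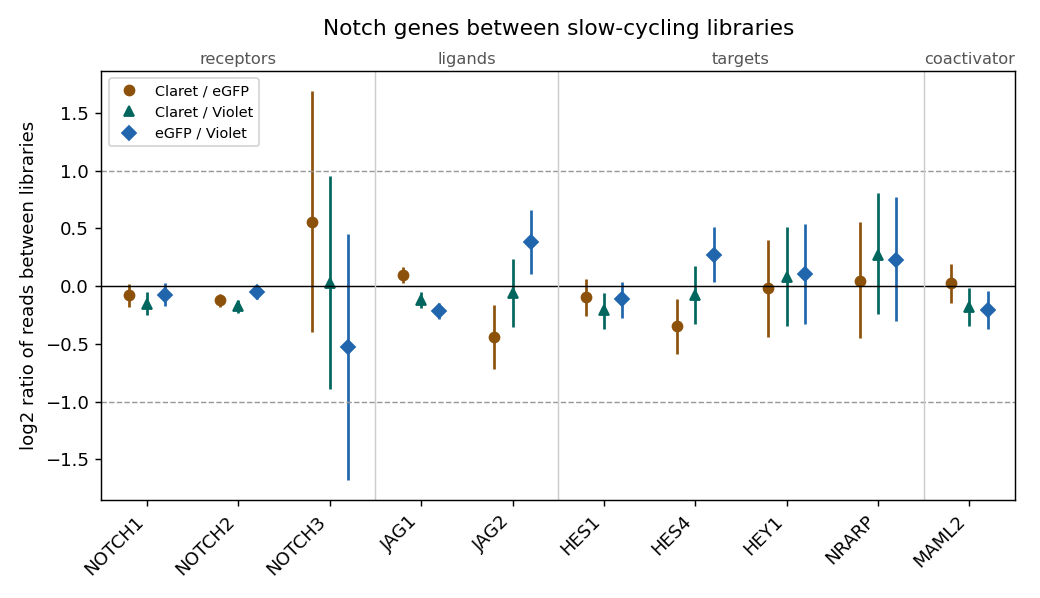
Log2 ratios between slow-cycling libraries for the 10 Notch genes, with 95% exact intervals for counting error and dashed lines at 2-fold. No point reaches a dashed line. JAG2 and HES4 are higher in eGFP than in Claret and Violet, and JAG1 is lower. The intervals of HEY1, NRARP and NOTCH3 include 0 in every pair.

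A wider list of 62 Notch pathway genes placed these values among the other parts of the pathway. Of them 53 were kept. Of these the Claret library had 4 (7.55%) past 2-fold higher, eGFP 7 (13.2%) and Violet 6 (11.3%), against 11.3%, 12% and 11.4% of all genes kept. Lower were 2 (3.77%), 2 (3.77%) and 1 (1.89%), against 6.68%, 7.63% and 7.02%. These shares are near the background or below it. Medians were 0.04, 0.06 and 0.12, near those of all genes kept. Past 2-fold in all 3 libraries were DLL4, HES7, TLE2 and MFNG on the higher side (7.55%, against 8.6% of all genes kept) and NEURL1B on the lower side (1.89%, against 4.92%). Their values below are a description of single genes, since the list as a whole did not hold more such genes than the background.

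By role, the Delta ligands had few reads. DLL4 had 8 reads from Bulk against 23, 34 and 31 from Claret, eGFP and Violet, with log2 ratios of 1.23 (0.21 to 2.79), 1.84 (0.94 to 3.40) and 1.72 (0.80 to 3.28). At 0.508 CPM in Bulk, DLL4 passed the minimum only through the slow-cycling libraries, so its place among the genes past 2-fold follows in part from the filter. DLL1 had 1 read from Bulk against 13, 10 and 11 from the other libraries, under the 1 CPM minimum, and its intervals started at 0.86, 0.50 and 0.67. DLL3 and DLK1 had 0 to 3 reads in any library, and DLK2, a non-canonical ligand, stood at 0.21, -0.43 and 0.29. The fourth receptor, NOTCH4, had 21 to 27 reads per library and log2 ratios of -0.04, 0.33 and 0.12.

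In the target family, 8 genes were listed and 6 kept, with medians of 0.72, 1.05 and 0.86. These genes were listed by gene family (HES, HEY and BHLHE), and whether Notch controls each of them in these cells was not tested. Past 2-fold higher were 1, 3 and 2 of the 6, against 11.3%, 12% and 11.4% of all genes kept, and 0 were lower. The 95% interval lay above 0 for 4, 5 and 4 of the 6, against 34.2%, 34.7% and 34.9% of all genes kept, and below 0 for none. The width of an interval depends on the number of reads, and 6 genes are too few to be set against these shares. HES7, known as an oscillating repressor of the segmentation clock, had 96 reads from Bulk against 276, 322 and 242 from Claret, eGFP and Violet, with log2 ratios of 1.40 (1.08 to 1.77), 1.72 (1.40 to 2.08) and 1.31 (0.98 to 1.69). HES2 had 85 reads from Bulk against 179, 224 and 233 from the other libraries, with log2 ratios of 0.95, 1.37 and 1.43, past 2-fold in eGFP and Violet but not Claret. HEYL, a relative of HEY1, had 70 reads from Bulk against 112, 137 and 130 from the other libraries, with log2 ratios of 0.56, 0.94 and 0.87. BHLHE40 was at 0.88, 1.16 and 0.85, BHLHE41 at 0.02, 0.25 and 0.30 and HES6 at 0.24, 0.33 and 0.09. The intervals of BHLHE41 included 0 in all 3 libraries and those of HES6 in Claret and Violet. HES6 transcripts have a GC content of 71.0%, and centred on genes of similar GC content HES6 stood at 0.03, 0.09 and -0.12. HES7 (GC content 67.5%) stood at 1.18, 1.48 and 1.11 when centred in the same way, and HES2 at 0.77, 1.17 and 1.28. HEY2 had 4 to 14 reads and HES5 0 or 1, below the minimum. Of these family members, HEYL, HEY2, HES5 and BHLHE41 held an RBPJ core in the window searched and HES7, HES2, HES6 and BHLHE40 did not. The core was present in 20.8% of all promoters searched, a share that 8 genes are too few to be set against.

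Of the 6 nuclear complex genes of the wider list, 0 passed 2-fold. Of all genes kept 18%, 19.7% and 18.4% did in either direction, shares that 6 genes are too few to be set against. Medians of the 6 genes were -0.36, -0.32 and -0.30, whereas MAML2 was above Bulk. RBPJ had 1801 reads from Bulk against 1972, 1748 and 1914 from Claret, eGFP and Violet, with log2 ratios of 0.02, -0.05 and 0.08 whose intervals included 0. The acetyltransferase genes EP300 (-0.67, -0.59 and -0.44) and KAT2B (-0.77, -0.87 and -0.58) were below Bulk. Among 10 corepressor genes kept, TLE2, a Groucho-family corepressor that HES proteins recruit, was past 2-fold higher, with 82 reads from Bulk against 242, 293 and 247 and log2 ratios of 1.43, 1.80 and 1.56. This 1 gene of 10 is near the 8.6% of all genes kept that were higher in all 3 libraries. CIR1 (0.64, 0.61 and 0.48) and TLE1 (0.41, 0.46 and 0.44) were also above Bulk with intervals above 0. SPEN, which binds RBPJ in the absence of Notch, was at -0.73, -0.64 and -0.46.

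Of the 9 maturation and cleavage genes 0 passed 2-fold, where 18%, 19.7% and 18.4% of all genes kept did in either direction, a share that 9 genes are too few to be set against. The 6 gamma-secretase genes had medians of -0.03, 0.07 and -0.04, with APH1B the highest at 0.81, 0.77 and 0.85. The protease gene ADAM17 was at 0.86, 0.71 and 0.85 and ADAM10 at -0.30, -0.21 and -0.09. The Fringe glycosyltransferases, which alter how receptors respond to Jagged and Delta ligands, differed among themselves. MFNG had 28 reads from Bulk against 139, 102 and 112 from Claret, eGFP and Violet, with log2 ratios of 2.13 (1.61 to 2.85), 1.78 (1.24 to 2.51) and 1.92 (1.39 to 2.65), whereas LFNG was at 0.12, -0.14 and 0.50 and RFNG at 0.68, 0.64 and 0.49. POFUT1, which adds O-fucose to the receptors, was at -1.02, -1.01 and -0.96. The Neuralized ubiquitin ligase gene NEURL1B had 734 reads from Bulk against 206, 151 and 245 from the other libraries, with log2 ratios of -1.93 (-2.17 to -1.71), -2.28 (-2.55 to -2.04) and -1.58 (-1.80 to -1.38). Its paralog NEURL1 had 6 reads from Bulk against 13, 34 and 39 from the other libraries, and at 0.381 CPM in Bulk it too passed the minimum only through libraries where it was higher.

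**Figure D5:**
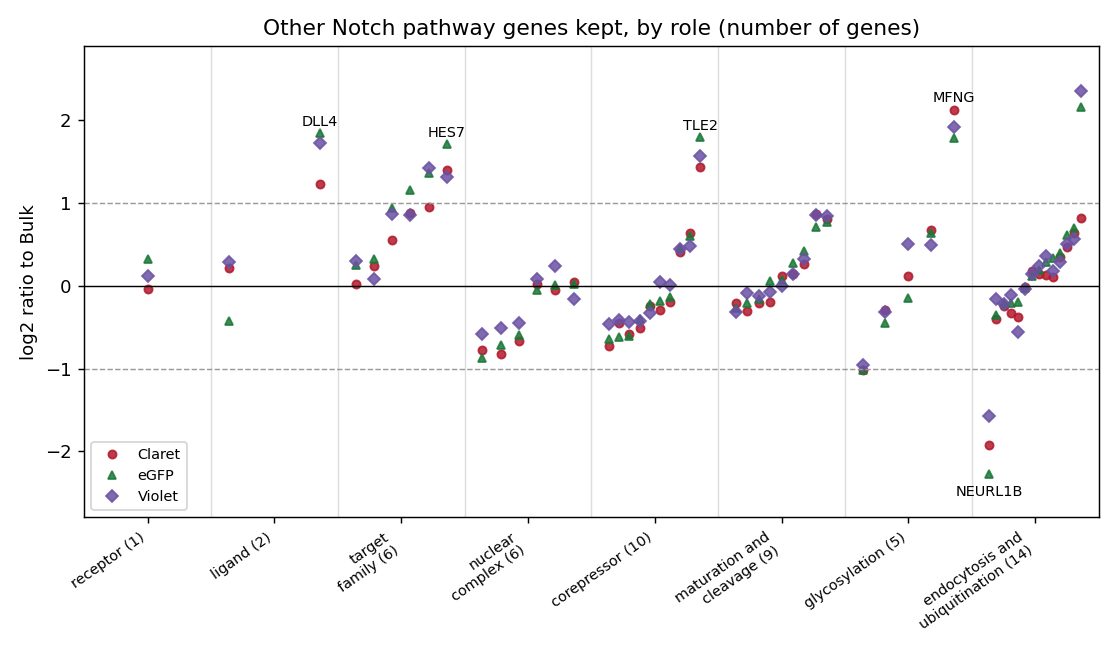
Log2 ratio to Bulk of the 53 wider-list genes kept, by role, with 1 point per slow-cycling library and genes ordered by their eGFP value within a role. Dashed lines mark 2-fold, genes past it in all 3 libraries are named, and the points of the other genes lie on both sides of 0.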

How the data were processed

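Reads per gene were counted by the authors and deposited as whole-number counts with no normalization. HISAT2 2.0.5 and featureCounts 1.5.0-p3 are named in the submitters' processing notes. Genome build, use of strand and handling of multi-mapping reads are not given in the sources used here, and reads of overlapping antisense genes could not be told apart. The deposited FPKM are these counts over gene length and a library total of 96.9% to 103.5% of the summed counts. Coordinates are those of the deposited table, which for the 10 genes are the same as in GENCODE 29 (GRCh38).

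Libraries were scaled by TMM (edgeR 4.0.16, R 4.3.3), and ratios are log2 differences of CPM after adding a prior count of 2. With 1 library per group no test was possible, so edgeR's quasi-likelihood test was not run. The 95% intervals are exact conditional intervals (Clopper-Pearson) for read ratios, without the prior count. Ratios and intervals were checked on simulated data that held counting error only, so the check does not cover variation between cultures. Promoters are 250 bases of RefSeq sequence and GC content is the mean over GENCODE 29 transcripts. Named genes are the 10 followed genes, wider-list genes past 2-fold in all 3 libraries, remaining NOTCH, DLL, HES, HEY and MAML genes, RBPJ, gamma-secretase genes, overlapping genes and copies. EP300, KAT2B, SPEN, CIR1, TLE1, ADAM10, ADAM17, LFNG, RFNG, POFUT1, NEURL1, BHLHE40, BHLHE41, DLK1 and DLK2 were chosen after their values were seen. The members and lists were chosen with earlier results of these data known. Alternatives were total-count and DESeq2 1.42.0 scaling, other filters, a prior count of 0.5, log2(FPKM + 1), the treatment field, a GC correction and other fold rules.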

Additional observations from a re-analysis of the deposited data

How the results depend on the processing

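Counts are given for Claret, eGFP and Violet in that order unless a library is named. With the rules of the report, 1653, 1755 and 1660 genes were past 2-fold higher and 974, 1113 and 1024 lower. At 1.5-fold, 3123, 3215 and 3219 genes were higher and 2524, 2702 and 2551 lower. Of the 10 genes, 2 were then higher in Claret and 3 in Violet, and 1 was lower in each of these. The wider list then had 12, 14 and 10 genes higher and 6, 8 and 2 lower. With the whole interval beyond 2-fold, 822, 903 and 845 genes were higher and 581, 653 and 617 lower. In eGFP 1 of the 10 genes was then higher and 0 lower, and the wider list had 1 gene lower in Claret and 1 in eGFP.

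With no filter, 3521, 4477 and 4713 genes were higher and 2960, 3239 and 2771 lower, and the wider list had 4 lower in Claret and 2 in Violet. With a minimum mean of 10 CPM, 615, 685 and 608 genes were higher and 634 lower in Claret. HEY1, NOTCH3 and NRARP are removed by that minimum. This left 0, 1 and 0 of the 10 genes higher and 0 lower in eGFP. Of the wider list 2, 4 and 3 genes were then higher. On log2(FPKM + 1), 589, 633 and 533 genes were higher, and 619 were lower in Claret and 725 in eGFP. Of the 10 genes 0, 0 and 0 were then higher and 0 lower in eGFP, and the wider list had 2, 3 and 3 higher and 1 lower in Claret and 1 in eGFP. DESeq2 size factors gave 2 wider-list genes lower in Violet, and total-count scaling gave 1 in Claret and 1 in eGFP.

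Groups taken from the treatment field gave 1024, 50 and 55 genes higher and 1660, 104 and 133 lower. Of the 10 genes 0, 0 and 0 were then higher, with 1 lower in Claret and 0 in eGFP, and the wider list had 1, 0 and 0 higher and 6, 1 and 0 lower. Claret against eGFP then had 1 of the 10 genes past 2-fold and Claret against Violet 3. HEY1 reversed to -1.95 in Claret, NOTCH3 to 0.026 in eGFP and JAG2 to -0.058 in eGFP. The NOTCH2 share of receptor FPKM became 64.6% in Bulk and 61.2% in Claret. With reads not divided by length the NOTCH2 share was 71.9% in Bulk and 74.4%, 75.1% and 74.7%.

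Under total-count scaling, DESeq2 size factors, a prior count of 0.5 and the GC correction, all 30 ratios of the 10 genes to Bulk stayed on the same side of 2-fold. No paired analysis was possible because each group has 1 library and the labels carry no replicate numbers, and for the same reason no replicate could be left out. Depth limits NOTCH3 (14 to 39 reads) and NRARP (56 to 73 reads). The spread between cultures is unknown.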
